A study of Mus musculus with 5 samples.

Results

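The genes described here are 38 postsynaptic scaffold and synaptic adhesion genes, taken by name from the 47729 genes of the count table. All 38 were found through their Ensembl identifiers, all are protein-coding, and all passed the filter on low counts. The tissue was the right hemisphere of the brain, taken at 5 months from male mice of the strain C57BL/6, and the 5 libraries form 1 group with no treatment and no genetic change named in the labels. The libraries, called animals 1 to 5, are numbered apart, but the labels do not say that each came from a separate mouse, so p-values measure no more than the variation among these samples, part of which may be technical. Depth was 13184234 to 15570064 counts per library before any filter. Because there is 1 group, the design allows a comparison of paralogs within each animal and a comparison of each gene's spread between animals with that of genes of like abundance.

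At an excitatory synapse, the Dlg proteins bind receptors and adhesion proteins beneath the postsynaptic membrane through PDZ domains. Dlgap proteins link Dlg proteins to Shank proteins, and Shank proteins bind Homer, which ties the scaffold to metabotropic glutamate receptors and to calcium stores. Neuroligins, Lrrtm and Lrfn proteins sit in the postsynaptic membrane, and neuroligins and Lrrtm proteins bind presynaptic neurexins across the cleft. Neuroligins and Dlgap proteins both end in a short stretch that is known to bind PDZ domains, those of Dlg and Shank proteins respectively.

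Within each family, the 3 neuroligin genes and the 4 Dlgap genes code for nearly the same end, though not all are alike in level. Their last 30 coding bases are therefore shown. They are read 5′ to 3′ from the GRCm38 genome at the end of the annotated coding sequence, in the orientation of the gene. Capitals mark the last 4 codons before the stop codon, which encode the PDZ-binding stretch.
Nlgn1: ccccattcacattcaACAACCAGGGTAtag
Nlgn2: ccccatccccactccACCACTCGGGTAtag
Nlgn3: ccccactcacactccACTACCCGTGTAtag
Dlgap1: tacatccccgaggcgCAGACCCGGCTCtga
Dlgap2: tacatccctgaggccCAGACGCGGCTCtga
Dlgap3: tacatccccgaggccCAGACCAGGCTGtga
Dlgap4: tatgtccccgaggccCAGACCAGGCTCtaa
The last coding base lies at position 25433638 of chromosome 3 for Nlgn1, 69825203 of chromosome 11 for Nlgn2 and 101320262 of chromosome X for Nlgn3. For the Dlgap genes it lies at 70818234 of chromosome 17 (Dlgap1), 14846708 of chromosome 8 (Dlgap2), 127236368 of chromosome 4 (Dlgap3) and 156762903 of chromosome 2 (Dlgap4). Nlgn1 and Nlgn2 are on the minus strand and the other 5 genes on the plus strand. The neuroligin ends match each other at 23 to 24 of 30 bases, and at 9 of the 12 capital bases in each pair. The Dlgap ends match at 24 to 27 of 30 bases, and at 9 to 11 of the 12 capital bases. Dlgap1 and Dlgap4 each have a second annotated end, and the one printed belongs to 8 of 11 and 6 of 12 coding transcripts, respectively. The counts are per gene and do not separate these ends.

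Most of the 38 genes were more abundant than the median gene of this tissue. Levels are given as RPKM (reads scaled to gene length and to the depth of the library), which allows genes of different length to be compared. Their mean levels ran from 2.14 RPKM for Homer3 to 223 RPKM for Ppp1r9b, with a median of 22.3 RPKM. For comparison, the median was 3.70 RPKM over 17736 protein-coding genes with counts, and 34 of the 38 genes lay above it. Of the 38, 27 exceeded 10 RPKM, 7 exceeded 50 RPKM, 5 were under 5 RPKM and 0 were under 1 RPKM. When the genes were put in order of mean level, 25 of the 37 neighbouring pairs had overlapping ranges over the animals, so the order among near neighbours is mostly not resolved.

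**Figure D1:**
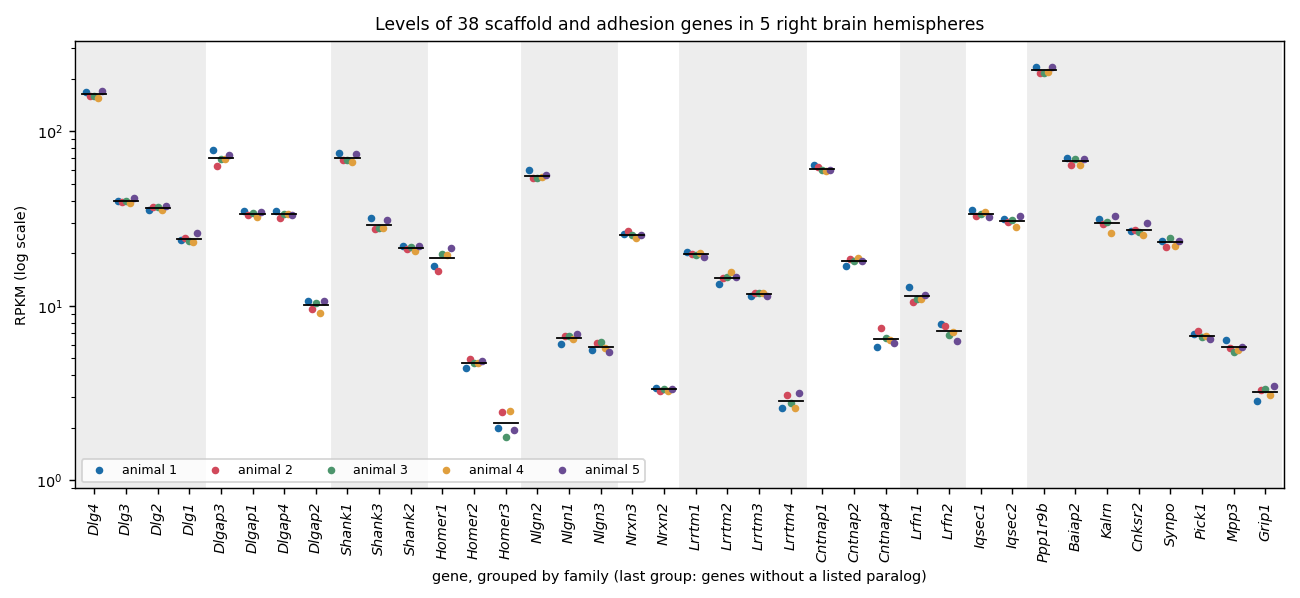
Level of each of the 38 genes in each of the 5 animals, in RPKM on a log axis, grouped by family; points are animals and bars are means over the 5 animals. Ppp1r9b (214 to 234 RPKM) and Dlg4 (156 to 169 RPKM) stand highest. The points of most genes lie close together compared with the whole span of levels. In order of mean level, 25 of the 37 neighbouring pairs still overlap.

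Among the Dlg scaffold genes, Dlg4 was the most abundant in every animal. Dlg4 (ENSMUSG00000020886, chr11:70016942-70047522, plus strand) encodes PSD-95, the main scaffold of the postsynaptic density. It measured 168, 160.0, 159.7, 156 and 169 RPKM in animals 1 to 5 (163 ± 5.91, SD, n = 5). Animals 1 and 5 were the highest, and no Dlg4 value came near that of another Dlg gene. Dlg3, which encodes SAP102, followed at 39.8 ± 1.001 RPKM. Dlg2, which encodes PSD-93, measured 36.3 ± 0.913 RPKM, and Dlg1, which encodes SAP97, 24.2 ± 1.13 RPKM (SD, n = 5 each). Dlg4 thus made up 61.8% ± 0.673 of the summed level of the 4 genes, Dlg3 15.1% ± 0.146, Dlg2 13.8% ± 0.433 and Dlg1 9.19% ± 0.252.

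The distance of Dlg4 from its paralogs depends on the gene length used. Within animals it was 4.08-fold above Dlg3, 4.46-fold above Dlg2 and 6.71-fold above Dlg1. The order held in 5 of 5 animals for each of the 6 Dlg pairs, and the exact sign-flip p was 0.0625 (0.0665 after adjustment over all 33 paralog pairs). The length recovered for Dlg4 is 4982 bases, while the union of its annotated exons is 13251 bases. With that union as length, Dlg4 still led, at 40.6% of the family sum. Dlg3 and Dlg2 were close, at a log2 ratio of 0.13 ± 0.035 (SD, n = 5), and their order turned to -0.41 with the length of the longest transcript.

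Dlgap3 was the leading Dlgap gene, and Dlgap1 and Dlgap4 could not be told apart. Dlgap3 (chr4:127169204-127237022) measured 78.6, 63.5, 69.0, 69.1 and 73.1 RPKM in animals 1 to 5 (70.6 ± 5.62, SD, n = 5). Animal 1 was the highest and animal 2 the lowest, and no value overlapped with another Dlgap gene. Dlgap1 measured 33.7 ± 1.10 RPKM, Dlgap4 33.4 ± 1.13 RPKM and Dlgap2 10.1 ± 0.693 RPKM. The log2 ratio of Dlgap1 to Dlgap4 was 0.013 ± 0.048, with Dlgap1 higher in 3 of 5 animals (exact sign-flip p = 0.625). Dlgap3 was 2.09-fold above Dlgap1 and 6.93-fold above Dlgap2. Its lead over Dlgap1 depended on the length used: the log2 ratio of 1.06 ± 0.086 became 1.14 with the union of exons but -0.077 with the length of the longest annotated transcript.

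The Shank genes, whose products form the layer beneath the Dlgap proteins, were led by Shank1. Shank1 (chr7:44310253-44360572) measured 74.9, 68.8, 68.9, 66.5 and 74.5 RPKM in animals 1 to 5 (70.7 ± 3.77, SD, n = 5). Shank3 (chr15:89499623-89560261) measured 31.8, 27.4, 27.9, 28.0 and 30.9 RPKM (29.2 ± 1.98). In both genes animals 1 and 5 were above the other 3 animals. Shank2 was lower still, at 21.5 ± 0.635 RPKM. Shank1 was 2.42-fold above Shank3 and 3.27-fold above Shank2, and Shank3 was 1.35-fold above Shank2, each in 5 of 5 animals with levels that did not overlap. The share of Shank1 in the family sum, 58.2% ± 0.286, varied little between animals.

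Homer1 led the Homer genes but was the gene of the 38 that varied most against genes of like abundance. Homer proteins are adaptors that bind Shank, metabotropic glutamate receptors and inositol trisphosphate receptors, and Homer1 also makes a short form that neuronal activity induces, which gene-level counts do not separate from the long forms. Homer1 (ENSMUSG00000007617, chr13:93299635-93405129) measured 17.0, 15.8, 19.9, 19.7 and 21.4 RPKM in animals 1 to 5 (18.8 ± 2.29, SD, n = 5). Animals 3, 4 and 5 were above animals 1 and 2. Homer2 measured 4.74 ± 0.191 RPKM and Homer3 2.14 ± 0.325 RPKM. Homer1 was 3.88-fold above Homer2 and 8.45-fold above Homer3, and Homer2 was 2.18-fold above Homer3. The share of Homer1 in the family sum was 73.0% ± 3.10. Homer3 had the fewest counts of the 38 genes, 87 to 134 per library, and 25.4% of its exon bases also belong to Ddx49 on the opposite strand, so its level is less certain.

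Of the other scaffold and signalling genes, Ppp1r9b and Baiap2 were the most abundant. Ppp1r9b (ENSMUSG00000038976, chr11:94991035-95006899) encodes spinophilin, which brings protein phosphatase 1 to dendritic spines. It measured 233, 214, 217, 217 and 234 RPKM in animals 1 to 5 (223 ± 9.62, SD, n = 5), with animals 1 and 5 above the others. It was the most abundant of the 38 genes, and its range did not overlap with that of Dlg4, the next gene. With the union of exons as length, Dlg4 measured 61.1 ± 2.22 RPKM and its mean was below those of Shank1, Dlgap3 and Baiap2. Baiap2, which encodes IRSp53, a membrane-bending partner of Dlg and Shank proteins, measured 67.4 ± 3.19 RPKM.

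The remaining scaffold and signalling genes ranged from 3.204 to 33.7 RPKM. The Iqsec genes encode exchange factors for Arf GTPases that bind Dlg4. Iqsec1 (chr6:90656088-90988685) measured 35.6, 32.8, 33.4, 34.6 and 32.2 RPKM in animals 1 to 5 (33.7 ± 1.38, SD, n = 5), and Iqsec2, on the X chromosome, 30.7 ± 1.62 RPKM. Iqsec1 was higher in 4 of 5 animals and the levels overlapped (log2 ratio 0.13 ± 0.11, exact sign-flip p = 0.125, 0.129 after adjustment over 33 pairs). Kalrn, a guanine nucleotide exchange factor that acts on small GTPases in spines, measured 31.3, 29.2, 30.3, 26.3 and 32.6 RPKM (29.96 ± 2.39), lowest in animal 4. Cnksr2, a scaffold of Ras signalling on the X chromosome, measured 27.1 ± 1.69 RPKM. Synpo, an actin-associated protein of the spine apparatus, measured 23.1 ± 1.12 RPKM. The AMPA receptor-binding PDZ proteins were lower: Pick1 measured 6.76 ± 0.279 RPKM and Grip1 3.204 ± 0.247 RPKM. Mpp3, a membrane-associated guanylate kinase like the Dlg proteins, measured 5.80 ± 0.344 RPKM. These levels depend on the gene length used. With the longest annotated transcript as length, Pick1 measured 20.5 ± 0.846, Mpp3 13.2 ± 0.783, Grip1 4.62 ± 0.356 and Kalrn 53.6 ± 4.28 RPKM.

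Among the postsynaptic adhesion genes, Nlgn2 stood far above its paralogs. Nlgn2 (ENSMUSG00000051790, chr11:69823122-69837784, minus strand) encodes the neuroligin known from inhibitory synapses. It measured 59.7, 53.8, 54.0, 54.8 and 55.9 RPKM in animals 1 to 5 (55.7 ± 2.41, SD, n = 5), with animal 1 the highest. Nlgn1, known from excitatory synapses, measured 6.55 ± 0.348 RPKM, and Nlgn3, found at both kinds of synapse, 5.83 ± 0.331 RPKM. Nlgn2 was 8.39-fold above Nlgn1 and 9.41-fold above Nlgn3, and made up 81.8% ± 1.21 of the sum of the 3 genes. Nlgn1 was above Nlgn3 in 5 of 5 animals by 1.12-fold, while the levels of these genes overlapped between animals. Of the exon bases of Nlgn3, 41.2% also belong to the annotated gene Gm21986 on the same strand, and 21.7% of its 50-base words occur elsewhere among transcripts, so its count is uncertain.

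The Lrrtm and Lrfn genes encode leucine-rich repeat proteins of the postsynaptic membrane. Lrrtm1 (chr6:77242689-77257791) measured 20.4, 19.9, 19.6, 20.2 and 18.9 RPKM in animals 1 to 5 (19.8 ± 0.568, SD, n = 5). Lrrtm2 measured 14.5 ± 0.815 RPKM. Lrrtm3 measured 11.4, 11.8, 11.8, 11.9 and 11.3 RPKM (11.6 ± 0.263), and Lrrtm4 was the lowest at 2.85 ± 0.269 RPKM. The 4 genes stood in the same order in all 5 animals without overlap, at 1.36-fold from Lrrtm1 to Lrrtm2, 1.25-fold from Lrrtm2 to Lrrtm3 and 3.99-fold from Lrrtm3 to Lrrtm4. Lrfn1 (chr7:28451980-28468242) measured 12.9, 10.5, 10.9, 11.0 and 11.5 RPKM (11.4 ± 0.915), with animal 1 apart from the rest. Lrfn2 measured 7.14 ± 0.649 RPKM, so that Lrfn1 was 1.59-fold higher.

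Of the neurexin genes listed, Nrxn3 dominated Nrxn2. Neurexins are presynaptic receptors for neuroligins and Lrrtm proteins. Nrxn3 (chr12:88722876-90334935) measured 25.8, 26.7, 25.4, 24.5 and 25.4 RPKM in animals 1 to 5 (25.6 ± 0.779, SD, n = 5). Nrxn2 (chr19:6418731-6544169) measured 3.39, 3.27, 3.36, 3.24 and 3.36 RPKM (3.32 ± 0.0649), nearly the same in every animal. The ratio was 7.50-fold, with Nrxn3 at 88.5% ± 0.333 of the sum of the 2 genes.

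The Cntnap genes encode neurexin-related cell surface proteins, of which those of Cntnap1 and Cntnap2 are best known from the myelinated axon. Cntnap1 (chr11:101170523-101190724), a component of the axoglial junction beside the node of Ranvier, measured 64.2, 62.3, 59.7, 59.0 and 60.2 RPKM in animals 1 to 5 (61.1 ± 2.14, SD, n = 5). Cntnap2, which helps to cluster potassium channels along myelinated axons, measured 18.0 ± 0.670 RPKM. Cntnap4, known from interneurons, measured 5.79, 7.48, 6.56, 6.36 and 6.15 RPKM (6.47 ± 0.632), highest in animal 2. Cntnap1 was 3.37-fold above Cntnap2 and 9.34-fold above Cntnap4, and Cntnap2 was 2.77-fold above Cntnap4.

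Across the 10 families, 31 of the 33 paralog pairs had the same order in all 5 animals, the exceptions being Dlgap1 with Dlgap4 and Iqsec1 with Iqsec2. For 30 pairs the levels of the 2 genes did not overlap between animals. Pairs of genes from different families were not counted in this way, so these counts do not set paralogs apart from other pairs of genes. No pair could pass an adjusted threshold of 0.05, since the exact sign-flip test over 5 animals gives at least 0.0625. Shares of the summed level are taken over the listed genes of a family alone. Among families with 3 or 4 listed genes, the leader held over 50% in the Shank, Homer, Nlgn and Cntnap families with each length used. Dlg4 held 61.8% with the recovered lengths but 40.6% with the union of exons and 47.2% with the longest transcripts. Dlgap3 held 47.7% ± 1.30 and Lrrtm1 40.6% ± 1.29. The summed level was highest for the Dlg genes (263 ± 7.91 RPKM), followed by the Dlgap (148 ± 7.94) and Shank (121 ± 6.21) genes. With the union of exons as length, the Dlg sum was 151 ± 4.21 RPKM, close to 146 ± 7.90 RPKM for the Dlgap genes. The Homer genes, which bind Shank proteins, summed to 25.6 ± 2.21 RPKM. Paralogs of a family shared almost no 50-base words, at most 8 for any of the 38 genes with the other 37.

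**Figure D2:**
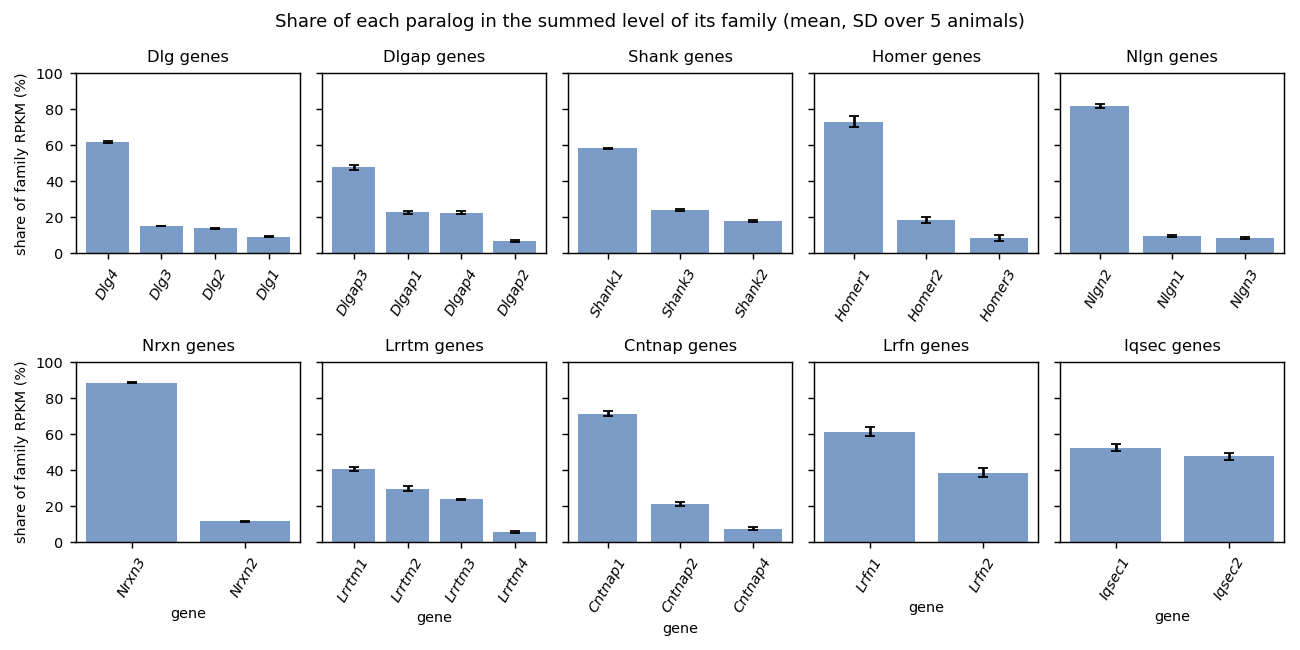
Share of each paralog in the summed RPKM of the listed genes of its family, in percent, for the 10 families. Bars are means and whiskers are SDs over 5 animals. Nlgn2 and Nrxn3 hold 81.8% and 88.5% of their sums, while the listed Iqsec genes are nearly even at 52.3% and 47.7%.

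The spread between animals was small for most of these genes. The coefficient of variation of RPKM ran from 1.95% for Nrxn2 to 15.2% for Homer3, with a median of 4.79%. For 16 of the 38 genes it was less than 2 times what counting alone gives. In Homer3 counting alone gives 9.74%. The highest animal exceeded the lowest by a median of 1.13-fold over the 38 genes, against 1.19-fold over all 14770 genes tested. It was 1.15-fold over the 10772 genes between the lowest and the highest abundance of the 38. Those genes were not matched in level, with a median of 9.21 RPKM against 22.3 RPKM for the 38 genes. These folds therefore do not compare genes of like abundance, unlike the ratios to the trend that follow.

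The spread of each gene was then compared with the trend of genes of like abundance, using edgeR's quasi-likelihood dispersion with Benjamini-Hochberg adjustment over all 14770 genes. Over all genes, 45 were more variable than the trend at an adjusted p under 0.05, or 0.305%, and 0 were less variable, or 0%. None of the 38 genes passed in either direction. The test has limited reach for changes of this size. In simulated counts with 1 animal changed 1.5-fold, 58.2% of changed genes were recovered, and the widest range among the 38 genes was 1.39-fold (Homer3). Without adjustment, 3 of the 38 (Homer1, Kalrn and Dlgap3) were more variable at p under 0.05, beside 5.43% of all genes, and 1 (Lrrtm3) was less variable, beside 5.00% of all genes. The 38 genes had a median ratio to the trend of 1.26, with 24 of 38 above it (63.2%). Over all genes the median ratio was 0.875, with 43.4% above the trend.

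Homer1 had the highest ratio to the trend, 9.06, with a 1.37-fold range between animals. Its adjusted p from edgeR was 0.123 (0.00059 before adjustment). Without animal 2 its log2 ratio went from 3.18 to 2.25, below the 2.42 of Kalrn in the same fit. The call depended on the processing: the adjusted p ran from 0.000224 (edgeR with no filter on low counts) to 0.857 (limma on log2 RPKM), and DESeq2 marked Homer1 as a dispersion outlier. With edgeR it was 0.74 without animal 2 and 0.0607 without animal 4. The ratios were 4.41 for Kalrn (edgeR adjusted p = 0.658), 4.38 for Dlgap3 (0.664), 2.997 for Shank3 (0.931) and 2.43 for Cntnap4 (0.961). Single animals weighed on these ratios. On the log2 scale, that of Kalrn went from 2.14 to 0.78 without animal 4, and that of Cntnap4 from 1.28 to -0.40 without animal 2. The log2 ratio of Dlgap3 went from 2.13 to 1.25 without animal 2 and to 1.42 without animal 1. At the other end stood Lrrtm3 with a ratio of 0.149, Nrxn2 with 0.197 and Dlg2 with 0.322. Nrxn2 was below Lrrtm3 with limma (log2 ratios of -4.32 and -2.53), with no filter on low counts (-2.65 and -2.54) and without animal 2 (-2.59 and -2.49). Dlg2 measured 35.2, 37.0, 36.8, 35.4 and 37.1 RPKM in animals 1 to 5, a 1.05-fold range, and that of Lrrtm3 was also 1.05-fold.

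**Figure D3:**
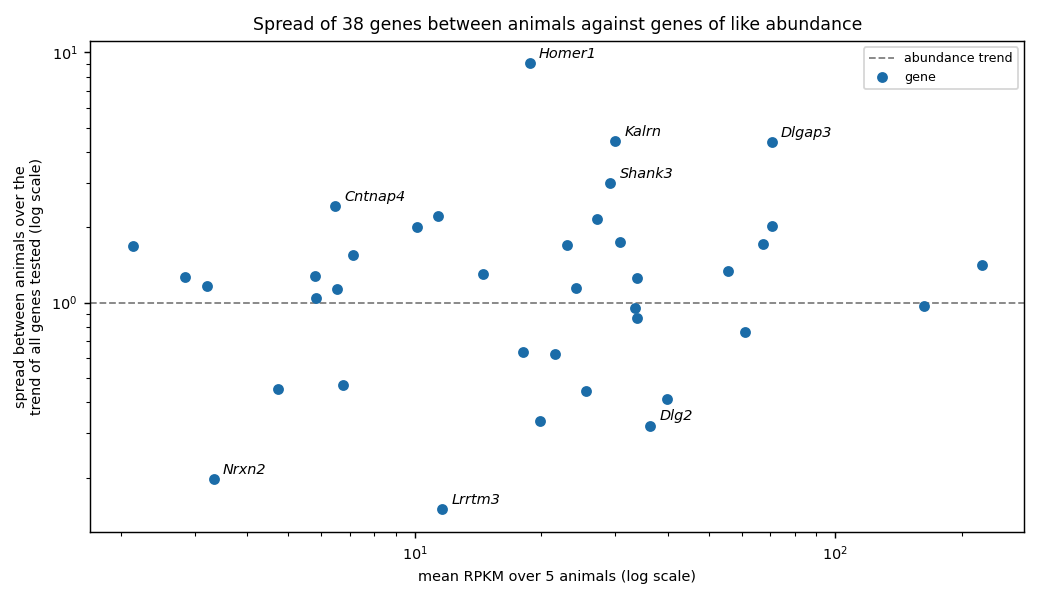
Ratio of each gene's spread between animals to the trend of genes of like abundance (y axis, log scale) against its mean RPKM (x axis, log scale); each point is 1 of the 38 genes and the dashed line is the trend. Homer1 stands highest at 9.06 and Lrrtm3 lowest at 0.149, at middle levels of expression.

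Because Homer1 has an activity-induced form, a list of 12 activity-induced genes was read beside it. Of these, 2 were called more variable than the trend by edgeR: Npas4 (adjusted p = 0.0116) and Btg2 (adjusted p = 0.00896). Without adjustment 7 of 12 were more variable (58.3%, beside 5.43% of all genes), with a median ratio of 4.54. Npas4, an activity-induced transcription factor, measured 7.89, 7.18, 3.80, 4.27 and 4.74 RPKM in animals 1 to 5, so it was high in the 2 animals in which Homer1 was low. Btg2, Junb and Dusp1 also had their highest levels in these 2 animals, whereas Egr1, Fosb and Egr4 had their lowest there, like Homer1. The other genes of the list did neither. The 12 genes had no common order over animals 1 to 5, with 2, 3, 4, 1 and 2 genes highest in them. In the same sequence of animals, 4, 3, 3, 1 and 1 genes were lowest. The part of neuronal activity in the spread of Homer1 was not tested.

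The number of genes above their own mean differed between animals. Deviations are log2 CPM (counts scaled to library depth by TMM) minus the mean of the gene over the 5 animals. Of the 38 genes, 24 were above their own mean in animal 1. The count was 14 in animal 2 and 20 in animal 3. It was lowest, at 9, in animal 4 and highest, at 27, in animal 5. Over all 14770 genes the share above the mean stayed between 49.5% and 50.9%. The shifts were small: the median deviation of the 38 genes was 0.044, -0.029, 0.0025, -0.039 and 0.031 in animals 1 to 5. All 3 Shank genes were above their mean in animals 1 and 5 and below it in animals 2 and 4. The 4 Dlg genes were all above in animal 5 and all below in animal 4, whereas the 3 Homer genes were all below in animal 1 and all above in animal 4. With scaling by library totals the counts became 24, 17, 16, 9 and 27, while the share over all genes became 46.8%, 57.6%, 46.4%, 50.4% and 49.6%.

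Several lists of cell type and brain region markers also differed between animals, only in part in the same ones. Of 5 excitatory neuron markers, 0 were above their own mean in animals 2 and 4, and their summed level ran from 1234 to 1440 RPKM, lowest in animal 2 and highest in animal 5. Of 5 inhibitory neuron markers, 0 were above their own mean in animal 2 but 4 in animal 4, with sums from 413 to 472 RPKM. All 5 oligodendrocyte markers were above their mean in animal 4, where their sum was 927 RPKM against 748 to 784 RPKM in the others. All 5 astrocyte markers were also above their mean in animal 4 (sums from 699 to 768 RPKM over the animals). The summed level of 4 brainstem and spinal cord markers was 8.13 RPKM in animal 2 and 9.19 RPKM in animal 4, against 1.80 to 4.69 RPKM in the other 3 animals. All 5 striatal markers were above their mean in animal 1, with sums from 264 to 328 RPKM over the animals. Red blood cell markers followed another order, with the highest sum in animal 3 (236 RPKM) and the lowest in animal 5 (62.2 RPKM). Of 4 choroid plexus markers, 0 were above their own mean in animal 1 and 4 in animal 5. The sums of oligodendrocyte precursor markers differed little, at 29.8 to 31.0 RPKM. Long nuclear RNAs, listed with RNA quality and nuclear content in mind, also differed. Of these, 7 of 7 were above their own mean in animal 2 (median deviation 0.19) and 2 of 7 in animal 4. Their sums ran from 280 to 351 RPKM. No measure of RNA quality or nuclear content was used, so whether this list follows either was not tested. No list had a marker at 0 in all libraries, and of 5 cerebellar markers 2 passed the filter on low counts. The part of these differences in the movement of the scaffold and adhesion genes was not tested. In bulk tissue, fewer cells of a type and less RNA per cell cannot be told apart.

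Base composition moved with these deviations most in animal 1, a pattern looked for after the values had been seen. In animal 1, 18 of the 19 genes above the median GC content of the 38 (52.1%, in the longest annotated transcript) were above their own mean, against 6 of the other 19. In animal 2 these counts were 4 and 10, and in animal 3 they were 7 and 13. In animals 4 and 5, where the fewest and the most of the 38 genes were above their mean, the GC-rich and GC-poor genes differed less, at 3 and 6 in animal 4 and 13 and 14 in animal 5. The Spearman rank correlation between GC content and deviation over the 38 genes was 0.73, -0.46, -0.36, -0.10 and -0.24 in animals 1 to 5. Over 14731 genes tested it was 0.31, -0.070, -0.024, -0.10 and -0.11. These are correlations across genes of 1 library each, which are not independent. In animal 1, 67.7% of all genes above that GC content were above their own mean, and 39.8% of the rest. With the GC trend of all genes removed from each animal, 23, 14, 20, 10 and 27 of the 38 genes were above their mean. These totals were nearly the same as before, but they add GC-rich and GC-poor genes together. The split went from 18 and 6 to 14 and 9 in animal 1, where the rank correlation became 0.33. It became 5 and 9 in animal 2, and 8 and 12 in animal 3.

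**Figure D4:**
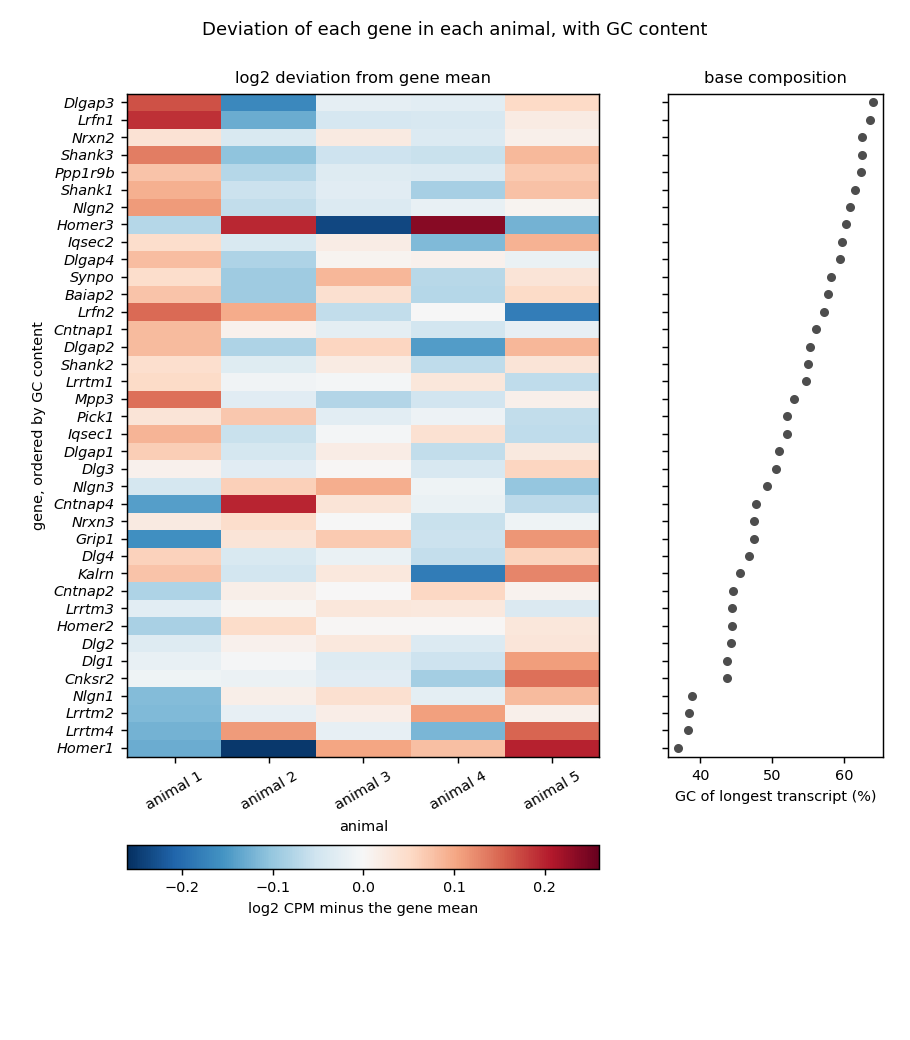
Deviation of each of the 38 genes from its own mean in each animal (colour, log2 CPM minus the gene mean), with genes ordered by the GC content of their longest transcript (right, in percent). The GC-rich genes at the top are mostly high in animal 1, with 18 of 19 above their mean, while Homer1 at the bottom is low in animals 1 and 2.

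Other proteins of the synapse were read from further lists. Of 32 other postsynaptic density and spine proteins, 31 were tested, and 0 were called more or less variable by edgeR. Without adjustment 2 were more variable, among them Frmpd4. Their median level of 20.6 RPKM was close to the 22.3 RPKM of the 38 genes, and the most abundant were Dynll2 (433 ± 12.6 RPKM, SD, n = 5), Agap2 (183 ± 9.92) and Git1 (78.5 ± 2.93). They were above their own means in 22, 11, 14, 8 and 17 of 31 cases in animals 1 to 5, so animals 2 and 4 were again the lowest.

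Of 38 other synaptic adhesion proteins, 1 was called more variable by edgeR, Cbln1, a secreted partner of neurexins. It measured 8.84, 10.02, 9.20, 12.7 and 6.17 RPKM in animals 1 to 5 (adjusted p = 0.0461), with a 2.04-fold range. Animal 4 was the highest and animal 5 the lowest, the same extremes as those of the brainstem and spinal cord markers; the part of the latter was not tested. The median level of these 38 was 14.5 RPKM, and the most abundant were Clstn1 (341 ± 8.83 RPKM, SD, n = 5), Clstn3 (120 ± 2.57) and Nptn (99.9 ± 3.003). They were above their own means in 18, 22, 21, 12 and 22 cases. Animal 4 was thus the lowest here too, but animal 2 was among the highest, unlike in the 38 genes.

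The AMPA and NMDA receptor subunits, whose proteins the Dlg scaffolds hold at the synapse, had 0 of 10 genes called by edgeR and 2 of 10 more variable without adjustment, with a median ratio to the trend of 1.37. They were above their own means in 5, 7, 3, 3 and 6 of 10 cases, highest in animal 2, unlike the 38 genes. Of 15 genes of vesicle release on the presynaptic side, 0 were called and 1 was more variable without adjustment, with a median ratio of 0.883. These were above their own means in 13, 4, 8, 3 and 11 of 15 cases, lowest in animals 2 and 4 like the 38 genes. No difference between the 38 genes and any of these lists was tested.

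What the 38 genes share beyond the choice of their names is limited. Of them, 4 are X-linked (Dlg3, Nlgn3, Iqsec2 and Cnksr2), and 9 span over 500000 bases of the genome. The length recovered from the deposited tables is that of all annotated exons joined for 25, and within 10% of it for 32. The exons of 20 overlap no other gene. In 4 genes at least 15% of exon bases belong to another gene as well: Nlgn3 and Homer3, given above, Lrrtm4 (25.1%, Gm4409 on the opposite strand) and Pick1 (18.6%, Gm49486 on the same strand). Whether counting used the strand is not given in the sources used here, so reads of such overlapping genes cannot be told apart.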

How the data were processed

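RNA of 5 right brain hemisphere samples was sequenced after library preparation with an Illumina mRNA kit, per the labels. Per the submitters' processing notes, the tools named are CASAVA 1.7, along with STAR 2.4.1d and also featureCounts 1.4.6-p4, with build GRCm38. Which annotation release was counted, whether counting used the strand and how multi-mapping reads were treated is not given in the sources used here. Whole-number counts fill the deposited count table, 1 per gene and library, not normalized. The RPKM table deposited by the authors was recovered from the counts for 100.0% of 117232 nonzero entries when library totals were taken in turn down the rows, and for 21.2% with each library's own total (tolerance 0.0011 RPKM plus a relative 0.0002). RPKM was therefore recomputed from the counts with own totals and the gene length recovered from these tables. Symbols, positions and coding ends came from the GENCODE annotation of GRCm38, matched by ID (47224 of 47729 genes).

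Variability was estimated by edgeR 4.0.16 under R 4.3.3, with filterByExpr, TMM and a robust quasi-likelihood fit of an intercept. The ratio of quasi-dispersion to its trend was compared with an F distribution (df 4 and 15.3), with a one-sided test of each tail and adjustment over 14770 genes and a threshold of 0.05. Paralogs were compared as log2 ratios of RPKM plus 0.1 within animals, with a two-sided exact test that flips signs over 32 patterns, adjusted over 33 pairs. Deviations are TMM log2 CPM with a prior count of 2. The edgeR step was tested on simulated counts in which 200 genes were changed in 1 animal. It recovered 39 of 67 genes changed 1.5-fold, 52 of 67 changed 2-fold and 64 of 66 changed 4-fold. Alternatives were RLE size factors, no filter on low counts, a prior that is not robust, DESeq2 1.42.0, limma 3.58.1, other gene lengths, a pseudocount of 1, the deposited RPKM, each animal left out and, chosen after seeing the data, removal of the GC trend.

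Depth of 13184234 to 15570064 counts gave 87 to 17189 counts per library for the 38 genes. Without molecular identifiers, reads are not independent molecules, and intervals from counts cover counting error alone. Values in every animal are given for the highest listed gene of each family and for the 5 highest and 3 lowest ratios to the trend. The 3 most abundant genes are named for the lists of other postsynaptic and other adhesion proteins only. Called genes are named for these lists and the activity-induced list. Not named are the 5 of 5 red blood cell markers and 2 of 3 tested brainstem and spinal cord markers called by edgeR. The same holds for the call of 1 of 5 striatal, 1 of 5 inhibitory neuron and 1 of 5 endothelial markers. Values in every animal for Ppp1r9b, and the sums over brainstem markers, were chosen for printing after they were seen. The 38 genes and the lists were chosen with earlier results of these data known.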

Additional observations from a re-analysis of the deposited data

Results flagged for a closer look

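Of 71 sets of 5 values examined (the RPKM of the 38 genes and the log2 ratios of the 33 pairs), 3 held an animal far from the other 4, with a gap of over 0.71 of the whole range. Chance gives about 1 in 20, or 3.55 of 71, close to the number found. The log2 ratio of Nlgn2 to Nlgn1 was 3.29 in animal 1 and 2.99 to 3.08 in the others. That of Nlgn1 to Nlgn3 was 0.34 in animal 5 and 0.098 to 0.15 in the others. That of Nrxn3 to Nrxn2 was 2.99 in animal 2 and 2.88 to 2.89 in the others. In each case the order of the genes was the same in all 5 animals. Of the 38 genes' own RPKM values, 0 had such an animal.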

How the results depend on the processing

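The number of genes more variable than the trend, 45 over all genes, was 249 with no filter on low counts, 19 with a prior that is not robust, 101 as DESeq2 dispersion outliers, 10 with limma, and 18 to 44 when 1 animal was left out (26 without animal 3 and 18 without animal 5). The cause was not tested. Among the 38 genes this count, 0 at first, was 1 (Homer1) with no filter and 1 (Homer1) with DESeq2; it stayed 0 in the other alternatives run, as did the count of less variable genes where it was tested. Over all genes, 25 were less variable with no filter and 0 in the other edgeR and limma alternatives. Leaving out 1 animal moved the log2 ratio of Cntnap4 to the trend between -0.40 and 1.701. With the longest annotated transcript as length, the log2 ratio turned to -0.41 for Dlg3 over Dlg2 and to -0.077 for Dlgap3 over Dlgap1. With no length correction these were -1.05 and -0.85, and that of Lrrtm1 over Lrrtm2 was -0.45. With the union of exons Dlgap1 over Dlgap4 became -0.061. Here the gene length alone was changed. Within each alternative, 31 to 33 of the 33 pairs had 1 order in all animals, but not always the order found at first. The mean log2 ratio was reversed for 1 pair with the union of exons. It was reversed for 2 pairs with the longest transcript and for 3 with no length correction. Counting error limits Homer3 most, with 87 counts in its lowest library.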
